A study of Homo sapiens with 6 samples.

Results

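The genes described here are the D-type cyclins CCND1, CCND2 and CCND3, their kinase partners CDK4 and CDK6, the CDK inhibitors CDKN1A, CDKN1B, CDKN2C and CDKN2D, and RB1. They were chosen by name, as 10 genes of the G1 checkpoint, and 9 of them were measured by a probe set with a single gene symbol, out of 18417 such genes in all. CDKN2C was not analysed here. RNA came from RL, a cultured human lymphoma line of B-cell origin with the t(14;18) translocation, grown in serum-containing medium. A group of 3 untreated arrays was compared with 3 arrays of cells given LY317615 (enzastaurin, an inhibitor developed against protein kinase C beta), with a time of 48 h in every title. The labels give the dose as 2.5 mM, a unit that could not be checked here, and name no vehicle for the untreated cells. All cells share a single line, and nothing states that replicates were separate cultures, so p-values reflect only how much these arrays varied, which may be technical.

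In G1 a D cyclin binds CDK4 or CDK6, and the active kinase phosphorylates the RB1 protein, which then releases E2F transcription factors and lets genes of DNA replication be transcribed. Inhibitors of the INK4 family, such as CDKN2C and CDKN2D, bind CDK4 and CDK6 themselves, whereas the CIP/KIP proteins p21 (CDKN1A) and p27 (CDKN1B) bind cyclin-CDK complexes. Much of this control acts on protein level and phosphorylation, which RNA arrays do not measure. In B cells CCND2 and CCND3 are the usual D cyclins; CCND3 is the D cyclin needed in germinal-centre B cells, and CCND1 is best known there from its translocation in mantle cell lymphoma.

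Values are log2 of the deposited probe-set intensities, so a difference of 1 is a doubling, and a gene's level is compared between arrays. Percentiles of intensity only place a probe set on the array, since probe sets differ in how they bind. Of all genes tested, 35.7% passed an adjusted p of 0.05 (limma, Benjamini-Hochberg over all genes): 14.2% were called higher and 21.4% lower after LY317615. The groups did not overlap for 49.8%. The B-cell markers measured (CD79A, CD79B, MS4A1, CD22 and PAX5) lay between the 95.2nd and 98.9th percentile of untreated intensity. Markers of T, NK, myeloid and other cells lay between the 9.09th and 51.2nd. Of the 5 B-cell markers 4 fell, and their summed linear intensity was 9580 to 10070 in untreated and 6651 to 7325 in treated arrays. Among dim markers, CD3E and 3 of 5 myeloid genes (CD14, CSF1R and MPO) rose; the myeloid sum was 136.6 to 142.8 and 168.3 to 200.1, and that of 6 T and NK genes 207.9 to 212.6 and 219.3 to 254.6. Their part in the results below was not tested.

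After LY317615, CCND1 rose 1.27-fold and CCND2 fell 1.23-fold, and the other 7 measured genes did not pass the test. The 2 of 9 called stand beside 35.7% of all genes, and nothing about the set is read from that count. It was 4 of 9, beside 7160 of all 18417 genes, with a variance prior that follows intensity. It was also 4 with 16 added before the log, beside 7125 of all genes. Without the dimmest 30% of genes it was again 4, beside 6862 of the fewer genes kept. Changes of the 9 genes ran from -0.30 to 0.34 on the log2 scale, with a median of -0.10 against 0.02 over all genes. The groups did not overlap for 5 of the 9 genes, beside the 49.8% of all genes. In a bulk sample fewer cells of a kind and less RNA per cell cannot be told apart.

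**Figure D1:**
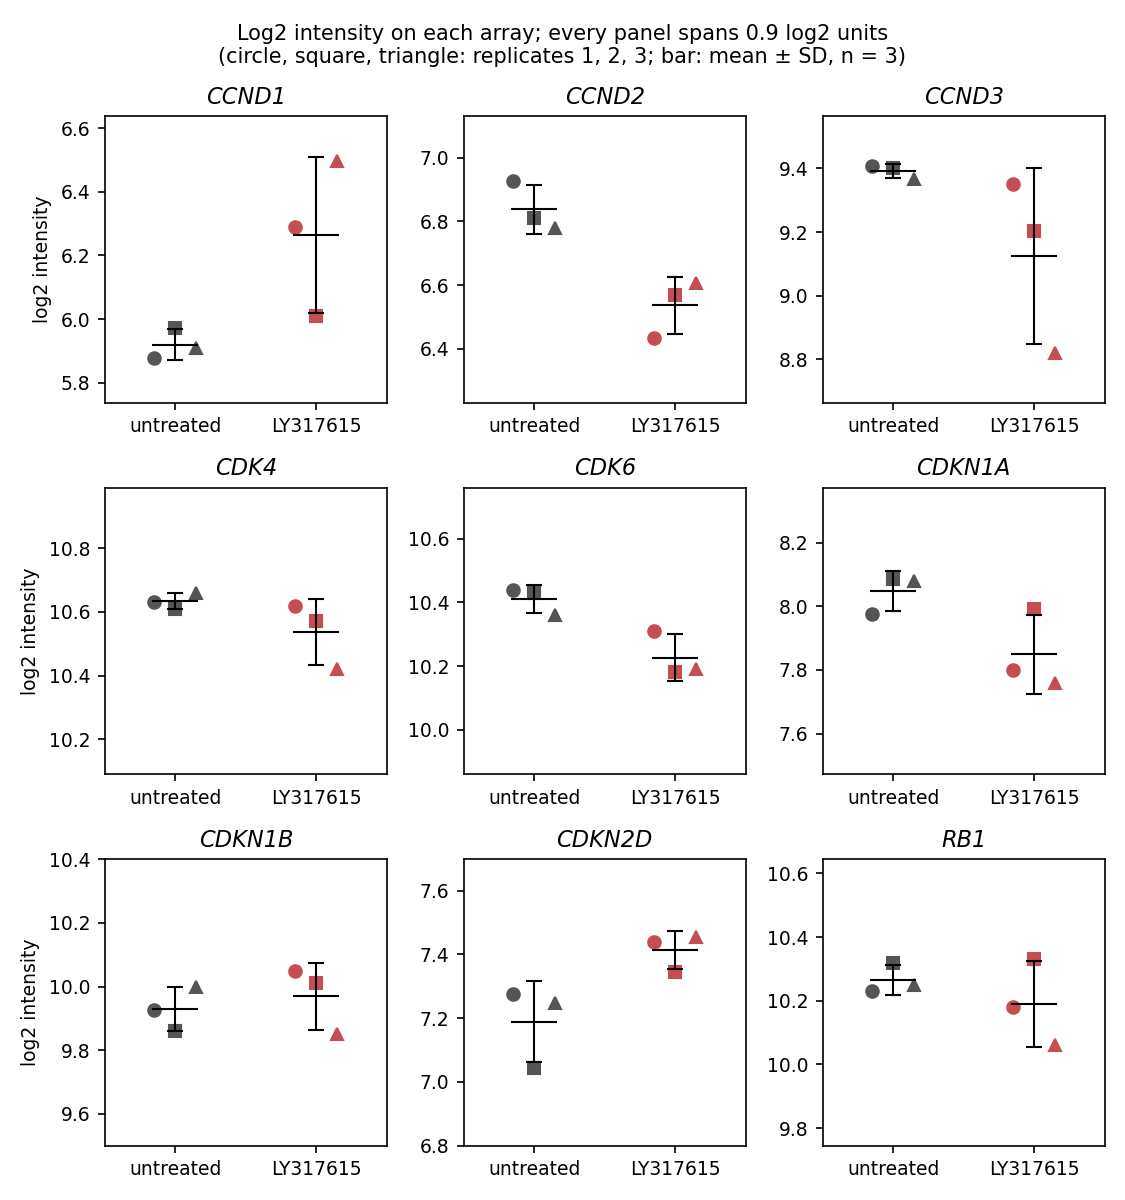
Log2 intensity (vertical axes, each spanning the same range) of the 9 measured genes on the untreated (grey) and LY317615 (red) arrays, with symbols for replicates 1, 2 and 3 and bars for the mean ± SD of 3 arrays. CCND2 has a clear gap between the groups, while CCND1 and CCND3 spread widely among the treated arrays.

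CCND1, the D cyclin of most tissues outside the blood, was read by probe set 7942123, at the 44.2nd percentile of untreated intensity among all genes. It was measured at a log2 intensity of 5.88, 5.97 and 5.91 on untreated arrays 1 to 3 and 6.29, 6.01 and 6.50 on treated arrays 1 to 3. Every treated array was above every untreated one, but treated replicate 2 by only 0.04. The change was 0.34 ± 0.12 (SE), with a 95% interval of 0.08 to 0.61 and an adjusted p of 0.0478 in limma. This call sat at the threshold. It was lost when any untreated array, treated replicate 1 or treated replicate 3 was left out. The change was 0.32 to 0.37 without an untreated array and 0.33 without treated replicate 1. Without treated replicate 3 it was 0.23 (adjusted p = 0.118 in limma). Fits that left out an array also called fewer of all genes, 4609 to 6153 in place of 6568. Setting the array medians equal, weighting the arrays or applying cyclic loess also ended the CCND1 call. Without treated replicate 2 the change was 0.47 (adjusted p = 0.00797 in limma).

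CCND2, which growth signals induce in B cells, was the only member called lower. On probe set 7953200 its log2 intensity was 6.93, 6.81 and 6.78 in untreated cells and 6.43, 6.57 and 6.61 in treated cells. The lowest untreated and highest treated arrays were 0.17 apart, the widest gap between groups in the set. CCND2 changed by -0.30 ± 0.08 (SE), with a 95% interval of -0.49 to -0.12 (adjusted p = 0.0196 in limma). The fall kept its call under cyclic loess (-0.34) and under equal array medians (-0.36). It lost the call without untreated replicate 1 (-0.26, adjusted p = 0.0702 in limma) and without treated replicate 1 (-0.25, adjusted p = 0.0616 in limma).

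CCND3, the D cyclin of germinal-centre cells, had nearly the same log2 intensity on the 3 untreated arrays (9.41, 9.40 and 9.37; probe set 8126371). The treated arrays gave 9.35, 9.20 and 8.82. All lay below the untreated ones, by as little as 0.02 for replicate 1 and most for replicate 3. The SD was 0.02 in untreated and 0.28 in treated cells. The difference of -0.27 ± 0.13 (SE) did not pass (95% interval -0.55 to 0.02, adjusted p = 0.128 in limma). It was -0.11 without treated replicate 3, and -0.38, past the threshold (adjusted p = 0.0462 in limma), without treated replicate 1. With a variance prior that follows intensity it also passed (adjusted p = 0.0377 in limma). After cyclic loess it was -0.05 (adjusted p = 0.746 in limma).

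RefSeq lists the pseudogenes CCND2P1, CCND3P1, CCND3P2 and CDK4P1, whose sequences may share probes with their parent genes; this was not tested. Treated replicate 3 was the lowest of all arrays for CCND3, CDK4, CDKN1A, CDKN1B and RB1 and the highest for CCND1 and CDKN2D. So 7 of the 9 genes had an extreme on treated replicate 3. The same share over all genes was not computed, and nothing about the set is read from this count. That array may stand apart for many genes. The limma array weight of treated replicate 3, fitted over all genes, was 0.376, against 1.04 to 1.51 for the other arrays. The SD was larger in the treated than in the untreated group for 8 of the 9 genes, and for 63.1% of all genes.

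CDK4 and CDK6, the catalytic partners of the D cyclins, were read at the 96.6th and 95.6th percentile of untreated intensity. Their promoters are shown because MYC, a factor known to act through the E-box CACGTG, fell in these cells, and because CDK4 is a textbook MYC target. RefSeq promoters on GRCh38.p14, from 250 bases before to 50 after the start and on the minus strand, are given with each CACGTG in capitals, for CDK4 at chr12:57752261-57752560 and for the CDK6 start at chr7:92836524-92836823.
CDK4: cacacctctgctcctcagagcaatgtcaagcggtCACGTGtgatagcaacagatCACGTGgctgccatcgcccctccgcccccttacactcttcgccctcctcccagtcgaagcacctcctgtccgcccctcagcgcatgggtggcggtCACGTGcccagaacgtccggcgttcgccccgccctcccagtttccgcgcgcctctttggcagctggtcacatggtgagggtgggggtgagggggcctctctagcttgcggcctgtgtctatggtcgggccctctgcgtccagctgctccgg
CDK6: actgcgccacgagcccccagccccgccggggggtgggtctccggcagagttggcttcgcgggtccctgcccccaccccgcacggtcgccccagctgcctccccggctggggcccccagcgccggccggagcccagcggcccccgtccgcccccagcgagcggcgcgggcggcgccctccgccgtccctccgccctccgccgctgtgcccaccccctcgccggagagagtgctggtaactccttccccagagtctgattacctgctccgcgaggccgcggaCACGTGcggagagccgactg
The CDK4 window holds 3 matches, starting 216, 196 and 101 bases before the transcription start. In the CDK6 window the only match starts 30 bases after it, and the other CDK6 window holds none. Of the 13 windows found for the set, 4 hold the E-box, from 3 genes: the windows shown and a pair of CDKN2C. The E-box is a palindrome, so both strands give the same matches, and 7.26% of 35116 RefSeq promoter windows hold it. A match describes letters and not binding.

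MYC itself changed by -1.32 ± 0.09 (SE), from 11.62 ± 0.08 to 10.31 ± 0.14 (SD, n = 3). CDK4 (probe set 7964522), beside the 3 E-boxes printed above, gave log2 intensities of 10.63, 10.61 and 10.66 in untreated and 10.62, 10.57 and 10.42 in treated cells. Treated replicate 1 lay within the untreated range, so the groups overlapped. The difference was -0.10 ± 0.08 (SE; 95% interval -0.28 to 0.08, adjusted p = 0.354 in limma).

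CDK6 (probe set 8140955) gave 10.44, 10.43 and 10.36 in untreated and 10.31, 10.18 and 10.19 in treated cells. All treated arrays were lower, with 0.05 between the groups. Its difference of -0.18 ± 0.08 (SE) did not pass (95% interval -0.35 to -0.01, adjusted p = 0.0864 in limma). The value passed under equal array medians (-0.24, adjusted p = 0.046 in limma), with a variance prior that follows intensity (adjusted p = 0.0137), without the dimmest 30% of genes (adjusted p = 0.0494) and with 16 added before the log (adjusted p = 0.0404). After cyclic loess it was 0.04.

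CDKN1A encodes p21, a CDK inhibitor that DNA damage induces. Probe set 8119088 read 7.98, 8.09 and 8.08 in untreated cells and 7.80, 7.99 and 7.76 in treated cells. Treated replicate 2 was above untreated replicate 1, so the groups overlapped. The difference of -0.20 ± 0.09 (SE) did not pass (95% interval -0.39 to -0.003, adjusted p = 0.103 in limma). Of the alternatives run, it passed only without treated replicate 2 (-0.27, adjusted p = 0.0439 in limma), and after cyclic loess it was -0.06 (adjusted p = 0.573 in limma).

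CDKN1B encodes p27, an inhibitor that accumulates in resting cells and whose gene FOXO factors activate. On probe set 7954029 the untreated arrays read 9.93, 9.86 and 10.00, and the treated arrays 10.05, 10.01 and 9.85. Treated replicate 3 was the lowest and treated replicate 1 the highest of all. The difference was 0.04 ± 0.08 (SE; 95% interval -0.15 to 0.23, adjusted p = 0.732 in limma). Equal array medians gave -0.02, and cyclic loess 0.26, where it passed (adjusted p = 0.0231 in limma).

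CDKN2D, the INK4 inhibitor p19, read 7.28, 7.04 and 7.25 in untreated and 7.44, 7.35 and 7.46 in treated cells (probe set 8034075). Untreated replicate 2 stood below the other untreated arrays, and the groups were 0.07 apart. The difference of 0.22 ± 0.09 (SE) did not pass (95% interval 0.03 to 0.42, adjusted p = 0.0721 in limma). The adjusted p was 0.0406 after cyclic loess, 0.0418 without the dimmest 30% of genes and 0.0435 with 16 added before the log, and 0.251 without untreated replicate 2 (limma).

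RB1, the substrate of the D cyclin kinases, was read at the 94.7th percentile of untreated intensity. Probe set 7969017 read 10.23, 10.32 and 10.25 in untreated and 10.18, 10.33 and 10.06 in treated cells. The treated arrays spanned the untreated ones. The difference was -0.08 ± 0.09 (SE; 95% interval -0.28 to 0.12, adjusted p = 0.512 in limma), and -0.01 without treated replicate 3.

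Promoter windows were matched for 8 of the 10 genes, with 13 windows in all. CCND1 and CCND2, the genes called above, had no window, so these counts do not cover them. The E2F letters TTTNGCGC, the cyclic-AMP element TGACGTCA, the TATA letters TATAAA and the cell-cycle element TTTGAA were in none of these windows, searched on both strands, against 1.79%, 1.85%, 11.5% and 15.2% of all windows. The FOXO letters GTAAACA were in 1 window, of CCND3, against 3.42%. GGGCGG, the GC box, was in 9 of 13 windows against 45.0%. No match says only that these letters are not in these windows. The only RB1 window, at chr13:48476200-48476499, had 38.3% GC. Whether it lies at the main start of RB1 was not checked, so nothing is read from it about the RB1 promoter. No matches of different motifs overlapped, but some GC-box matches overlapped each other, in CDKN1A and CDKN2C.

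Changes on these arrays differed with brightness, so each gene was set beside the 500 genes nearest to it in mean intensity. CDK4, CDK6, RB1, CDKN1B and CCND3 lie where the nearest genes had medians of -0.20 to -0.24 and 46.6% to 51.2% of them were called lower. Their own differences were -0.10, -0.18, -0.08, 0.04 and -0.27. CCND2 lay on the other side of 0 from its nearest genes, which had a median of 0.06; 20.0% of them had a smaller value than its -0.30. Around CCND1 the median was 0.17 and 28.2% were called higher, and 81.2% of those genes had a smaller value than its 0.34. CDKN2D at 0.22 exceeded 80.2% of its nearest genes, whose median was -0.06. CDKN1A at -0.20 lay close to the median of -0.17 around it.

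**Figure D2:**
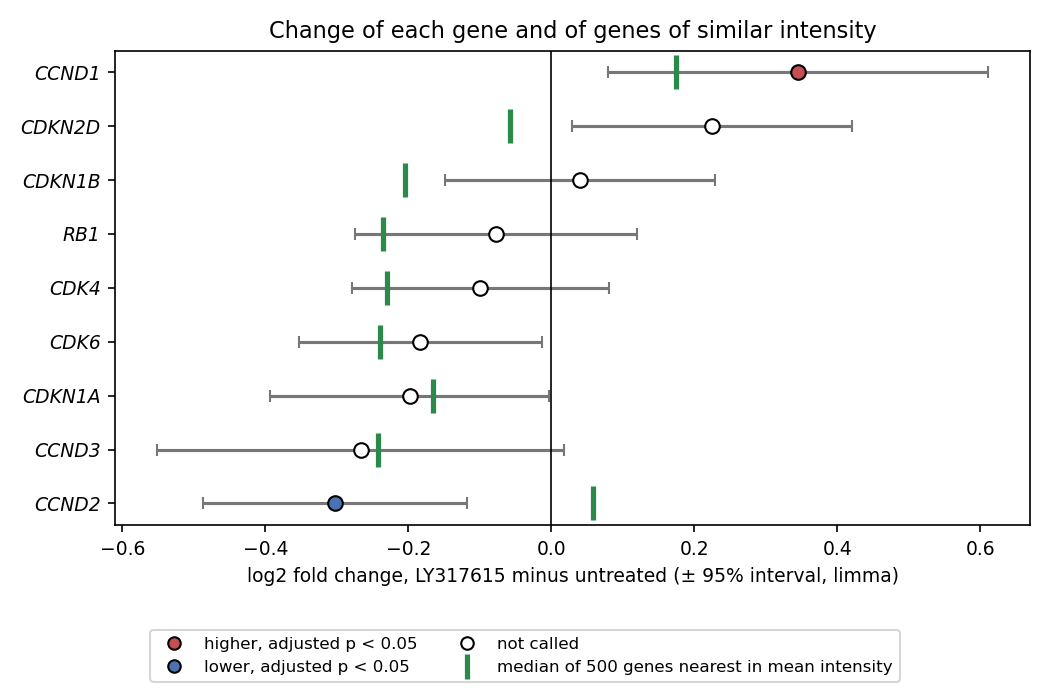
Log2 fold change of LY317615 minus untreated for each gene (circles, horizontal axis) with its 95% interval from limma, beside the median change of the 500 genes nearest in mean intensity (green marks). CCND1 and CCND2 are filled as called; CCND2 is on the other side of 0 from its green mark, and CDK4, CDK6, RB1 and CDKN1B lie right of theirs.

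The direction of several differences turned with scaling. Cyclic loess, which removes trends with intensity, gave 0.12 for CDK4, 0.04 for CDK6 and 0.14 for RB1, none of which passed, in place of negative values. The median over the 9 genes went from -0.10 to 0.12 under cyclic loess, -0.16 under equal array medians and -0.04 without treated replicate 3. CCND2 was the member that passed with the same sign under these 4 settings. Over all genes, the calls were 2622 higher and 3946 lower as deposited, 1810 higher and 4526 lower under equal array medians, and 2588 higher and 2979 lower after cyclic loess.

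**Figure D3:**
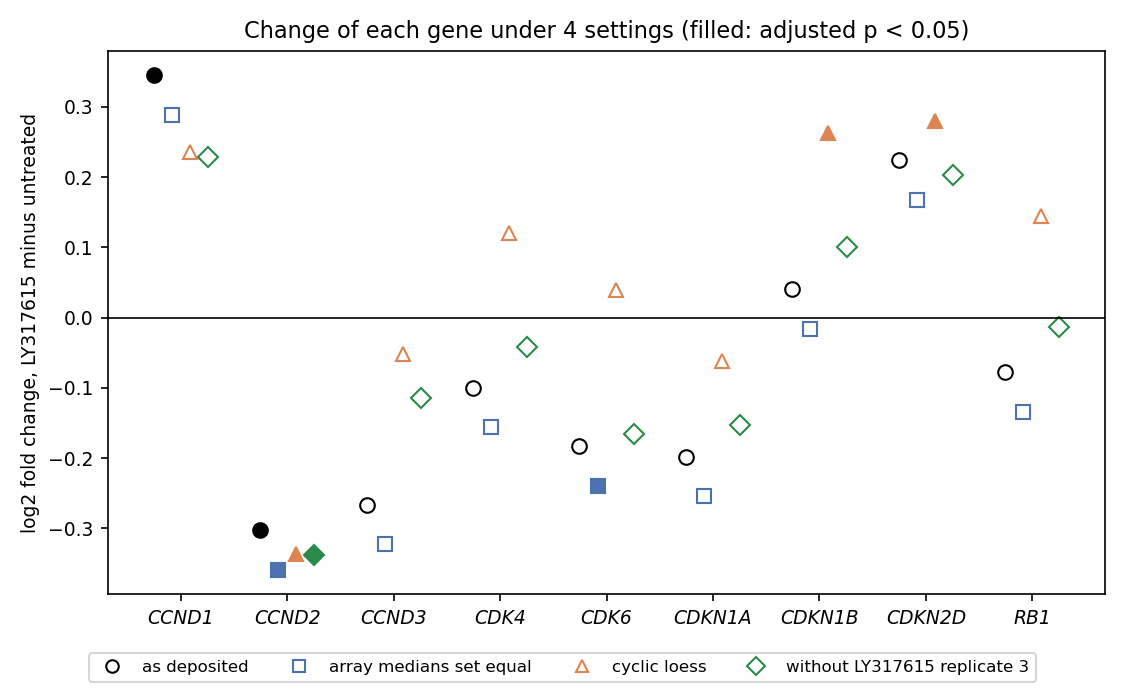
Log2 fold change of LY317615 minus untreated (vertical axis) for each gene under 4 settings, filled where the adjusted p was under 0.05. CCND2 is filled and below 0 in all 4, CCND1 is filled only as deposited, and CDK4, CDK6 and RB1 move above 0 after cyclic loess.

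Whether relatives moved apart was examined within arrays, as the difference of their log2 values on each array; only its change has a meaning, since the probe sets differ. CCND1 minus CCND2 was -1.05, -0.84 and -0.87 on untreated arrays and -0.15, -0.56 and -0.11 on treated arrays, a shift of 0.65 towards CCND1. CCND1 minus CCND3 shifted by 0.61, with -3.065, -3.195 and -2.322 on treated arrays 1 to 3, and CDKN1A minus CDKN1B by -0.24. For these 3 pairs the groups did not overlap and the exact two-sided permutation test gave p = 0.10, the smallest that 3 against 3 arrays allow (0.167 adjusted over 5 pairs). CCND2 minus CCND3 shifted by -0.04 (exact p = 0.80; -2.92 to -2.21 on treated arrays) and CDK4 minus CDK6 by 0.08 (exact p = 0.20), and their groups overlapped. A difference within arrays does not remove the change with brightness. The nearest genes had medians of 0.17 around CCND1 and -0.24 around CCND3. After cyclic loess the single genes read 0.24 (CCND1), -0.34 (CCND2), -0.05 (CCND3), -0.06 (CDKN1A) and 0.26 (CDKN1B). The pairs were not rerun under that setting.

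Other genes of the G1 pathway were read from 6 lists, of 73 genes in all; 72 were measured, of which 5 rose and 39 fell, beside 14.2% and 21.4% of all genes. After cyclic loess 8 rose and 26 fell. Among the 500 genes nearest in intensity to each of these genes, 14.6% to 54.6% were called lower. No list was tested against these shares, so the counts of falling genes below are descriptions. Among 8 partner cyclins, CDKs and the CDK-activating kinase, 4 fell and 0 rose, with 2 falling and 1 rising after cyclic loess and 4 and 1 without treated replicate 3. All subunits of the activating kinase, which phosphorylates CDKs on their activation loop, were lower: CCNH by -0.59 ± 0.09 (SE), CDK7 by -0.40 ± 0.07 and MNAT1 by -0.44 ± 0.09. CDK7 lost its call after cyclic loess (-0.19). CDC25A, a phosphatase that activates CDK2, also fell (-0.46). This call was lost after cyclic loess (-0.24) and when any single untreated array was left out (-0.47 to -0.45). The genes that did not pass, named after their values were seen, were CCNE1 (0.03), CCNE2 (0.18), CCNA2 (-0.06) and CDK2 (0.03), the cyclins and the kinase that act after the D cyclins. CCNE2 passed after cyclic loess (0.40, adjusted p = 0.0264 in limma) and without treated replicate 3 (0.34, adjusted p = 0.0179 in limma). The list median was -0.23, and -0.01 after cyclic loess.

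Of 3 further CDK inhibitors, CDKN1C, the CIP/KIP gene of p57, rose by 0.50 ± 0.09 (SE, adjusted p = 0.00401 in limma), its mean going from 7.18 ± 0.09 to 7.67 ± 0.14 (SD, n = 3). CDKN2A changed by -0.25 ± 0.07. This call was lost after cyclic loess (-0.15) and when any single untreated array or treated replicate 2 was left out (-0.25 to -0.23). The CDKN2A locus encodes p16 and ARF, which a gene symbol cannot part. CDKN2B read 0.09 (adjusted p = 0.471 in limma).

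Among 12 pocket proteins and E2F and DP factors, 6 fell and 1 rose, with 4 falling and 1 rising after cyclic loess and without treated replicate 3, and 4 and 0 without untreated replicate 1. TFDP2, a DP partner of E2F factors, had the largest change, -1.35 ± 0.08 (SE), from 7.96 ± 0.11 to 6.62 ± 0.02 (SD, n = 3). RBL2, the RB1 relative p130, changed by -0.55 ± 0.07 and E2F5, a repressor E2F that binds it, by -0.58 ± 0.08. The repressor E2F7, named after its value was seen, was the gene that rose (0.54); leaving out untreated replicate 1, untreated replicate 3, treated replicate 1 or treated replicate 2 ended its call (adjusted p = 0.0555 to 0.0678 in limma). Of the activators, E2F1 read 0.05 and E2F3 -0.01 (adjusted p = 0.631 and 0.933 in limma), whereas E2F2 fell (-0.40, adjusted p = 0.0228 in limma). TFDP1, another DP partner, changed by -0.36 and was also called lower. Both calls were lost after cyclic loess (-0.26 for E2F2 and -0.14 for TFDP1). E2F2, E2F3 and TFDP1 were named after their values were seen. The list median was -0.29, and -0.09 after cyclic loess.

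Of 19 replication genes that E2F controls, 8 fell and 1 rose. Among the genes nearest in intensity to each of these 19, 30.4% (around GINS2) to 54.6% (around CDC6) were called lower. The helicase genes MCM6 and MCM5 changed by -0.98 ± 0.08 and -1.04 ± 0.11 (SE) and the glycosylase gene UNG by -0.95 ± 0.10. TYMS, thymidylate synthase, was the gene that rose (0.47; named after its value was seen). The 10 genes that did not pass ran from -0.36 (CDC45) to 0.17 (CDC6), with PCNA at -0.10 and RRM1 at -0.01. After cyclic loess 8 genes fell and 2 rose, TYMS and CDC6 (0.39, adjusted p = 0.0305 in limma). CDC45, CDC6, PCNA and RRM1 were named after their values were seen. The list median was -0.32, -0.17 without treated replicate 3 and -0.09 after cyclic loess.

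Ubiquitin ligase genes for p27, p21 and the G1 cyclins gave 7 lower and 1 higher of 13, and 4 lower and 1 higher after cyclic loess or without untreated replicate 3. SKP2, the subunit that recognises p27, rose by 0.90 ± 0.08 (SE, adjusted p = 8.36e-05 in limma), its mean going from 7.90 ± 0.07 to 8.80 ± 0.06 (SD, n = 3). CKS1B, the cofactor SKP2 needs for p27, changed the other way by -0.73 ± 0.09 on its brightest probe set. The mean of its probe sets gave -0.60 (adjusted p = 0.00131 in limma). CUL4A, the scaffold of a ligase for p21, changed by -1.05 ± 0.07. The list median was -0.24, and -0.12 after cyclic loess.

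Of 17 transcription factors known to act on these genes, 13 fell and 1 rose, and 8 fell and 2 rose after cyclic loess. The list median was -0.38, and -0.20 after cyclic loess. HBP1, a repressor of CCND1, changed by -2.26 ± 0.08 (SE), and BCL6, a repressor of CDKN1A and CCND2, by -1.23 ± 0.08. NFKB1 rose by 0.36, while RELA, also of the NF-kB family, was called lower (-0.45). FOXO1 read -0.04 (adjusted p = 0.686 in limma) and FOXO3 0.33 (adjusted p = 0.0793 in limma). FOXO4 was called lower (-0.63). These 5 genes were named after their values were seen.

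**Figure D4:**
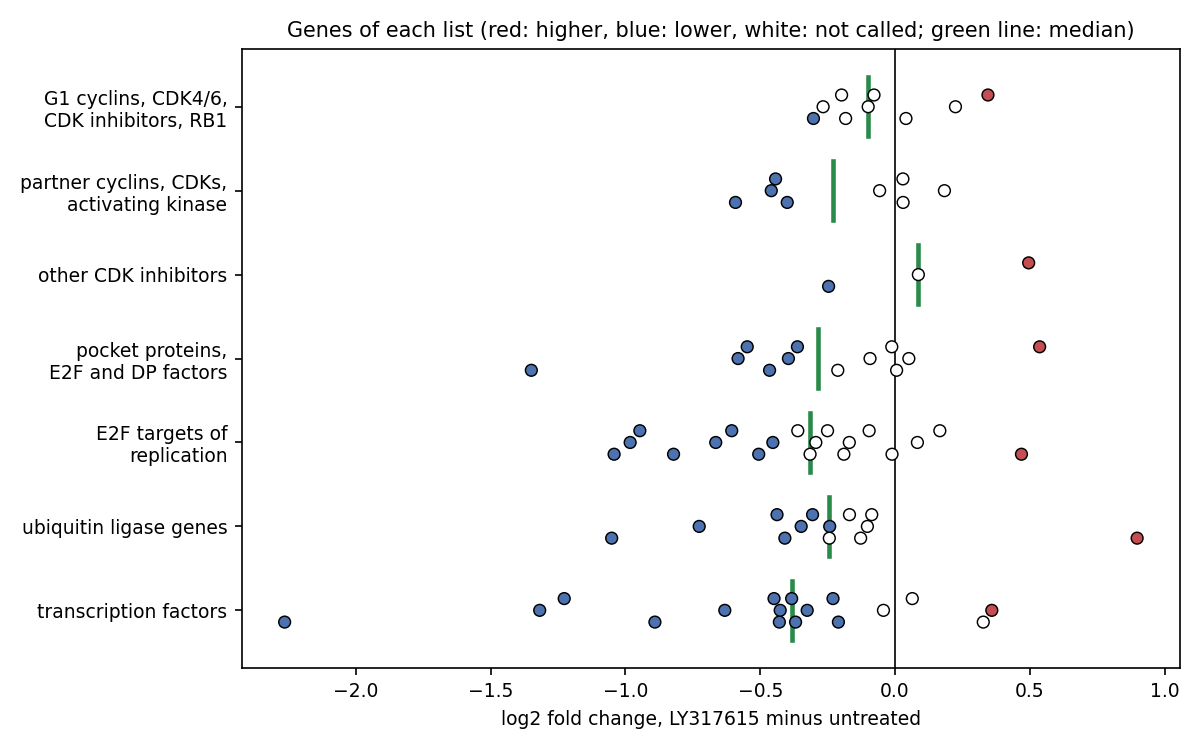
Log2 fold change of LY317615 minus untreated (horizontal axis) of each measured gene in the G1 set and in 6 lists of pathway genes, with called genes in red (higher) or blue (lower) and the list median as a green line. The G1 set stays between -0.30 and 0.34, while HBP1 and TFDP2 lie farthest left and SKP2 farthest right.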

How the data were processed

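Per the submitters' processing notes, the authors processed the arrays with RMA, Expression Console from Affymetrix and GCOS 1.4, in an order not given. The deposited intensity values are linear, 1 per probe set and array, which implies an unstated step back from the log2 values that RMA gives. From them log2 was taken with nothing added. Of 33297 probe sets, 19460 had a single gene symbol in the platform annotation and gave 18417 genes, the brightest probe set standing for each; every measured member had 1. No detection calls, scan dates or genome build were in the sources used here.

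All genes were fitted together with limma 3.58.1 (R 4.3.3; eBayes, no intensity trend, two-sided, Benjamini-Hochberg adjustment, threshold 0.05). The code was tested on simulated data. Exact permutation tests used scipy 1.17.1 and tables pandas 2.3.3. The members and gene lists were chosen with earlier results of these data known; the comparison with genes of like intensity and the within-array pairs were added after the data were seen. All members are named, and up to 3 called genes of each list by smallest adjusted p; CDC25A, E2F1, FOXO1, CDKN2B and those marked in the text fall outside that rule. A further gene list fixed with them is not reported here. The alternatives were the replicate block, leaving out each array, 2 variance priors, array weights, equal medians, cyclic loess, a filter on the dimmest 30%, the mean of probe sets, an adjusted p of 0.01 and an added 16. The number of arrays limits the precision.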

Additional observations from a re-analysis of the deposited data

How the results depend on the processing

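The count of members called, 2 of 9, was 0 at an adjusted p of 0.01, 1 with array weights, and 4 with a variance prior that follows intensity, with 16 added before the log or without the dimmest 30% of genes. Over all genes, 6772 were called with array weights, 7160 with that prior and 7125 with 16 added, and the filter called 6862 of the fewer genes it kept. Leaving out each array in turn gave 0 to 3 members, beside 4609 to 6153 of all genes. At an adjusted p of 0.01, 3586 genes were called over all genes in place of 6568. With the replicate number as a block, 6548 genes and 2 members were called. Deviations of same-numbered arrays from their group means correlated at -0.02, 0.09 and 0.07 over genes, and not every array correlated best with its own number, so the numbers were not taken as pairs. The count over the 6 pathway lists stayed within 1.5 times its value of 44 under every alternative run. Every measured member had 1 probe set, so averaging the probe sets of a gene left the members' fold changes as they were, with 2 members and 6555 genes called. Intensities carry no detection calls, so whether CCND1 was above background is not known.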
